A study of Mus musculus with 38 samples.

Results

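The regions described here are the H3K27ac peaks of uninduced mouse epidermal stem cells (EpdSCs) that were never called again once the transcription factor SOX9 had been switched on. They were chosen from the H3K27ac peak lists alone: a peak called at D0 was a member when no peak of the W1, W2, W6 or W12 list overlapped it by 1 bp or more. Of 30268 D0 peaks, 6067 met this rule, which is 20.0% (95% Clopper-Pearson interval 19.6 to 20.5%). All skin samples came from back skin of male *K14rtTA; TRE-myc-Sox9* mice, in which the *Krt14* promoter drives the tetracycline activator in the basal epithelium and doxycycline (DOX) then induces MYC-tagged SOX9. In intact mice DOX was injected at P21 and continued in the feed. D0 is the state before induction, and W1, W2 and W6 are 1, 2 and 6 weeks of DOX. W12 is 12 weeks of DOX in skin grafted from newborns onto immunocompromised female *Nude* hosts, begun once the grafts had healed. Grafting, host and time cannot be told apart there. Sorted cells were negative for CD31, CD45, CD117, CD140a and CD34 and high in CD49f and LY6A. A separate experiment measured H3K4me1 in cultured keratinocytes, without DOX and with DOX-induced forms of SOX9. These were wild-type SOX9 (WT), SOX9 without its DNA-binding HMG domain (ΔHMG) and SOX9 without its transactivation domain (ΔTA). The only list without DOX was of the WT culture, and each form was transduced separately. The W12 libraries carried a replicate of W2 as well. Reads were split by barcode, and the W12 lists were taken to hold W12 alone. Chromatin was cut with MNase at a high and a low level, and the 38 samples of the series are 19 high and 19 low digests, not 38 replicates. At D0 and W1 the 2 samples of a mark are the 2 digests of the same pooled replicates. The authors merged digests and replicates before calling, which leaves 1 list for each mark at each time, and no spread between replicates can be given. The intervals below cover counting error only, and a share given with its interval is a description, without a p-value.

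Enhancers are stretches of DNA, often far from the gene they act on, that carry monomethylated histone H3 lysine 4 (H3K4me1) when primed and gain acetylated lysine 27 (H3K27ac) when active. Active promoters carry H3K27ac as well, with little H3K4me1 at the start site itself. In the epidermis, enhancers are bound by p63, AP1, GATA3 and other factors, and acetylation can be removed while the underlying methylation persists, a state often called primed or decommissioned depending on what follows.

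The sequences below are 300 bases of GRCm38, plus strand, centred on the H3K27ac summit of 5 lost peaks that the results return to. Capitals mark matches on either strand to a GATA motif (AGATAA), an AP1 motif (TGANTCA) or a SOX motif (ACAANG). All 5 windows were chosen among the named peaks for holding such a match. The first lies at chr4:138675995-138676294, 48409 bp from the nearest start site (*Pla2g2c*), and was the second strongest lost peak. The second lies at chr6:37276945-37277244 in an intron of *Dgki*, a diacylglycerol kinase. The third lies at chr11:21688272-21688571 in an intron of *Wdpcp*, a gene of ciliogenesis and planar polarity. The fourth lies at chr16:84621266-84621565, intergenic and nearest to the start site of *Gm25292*, and is shown because its H3K4me1 domain was called at D0 alone. The fifth lies at chr11:113951924-113952223 in an intron of *Sdk2*, a cell adhesion gene, and is shown because its culture domain was absent with all 3 forms of SOX9.
Pla2g2c: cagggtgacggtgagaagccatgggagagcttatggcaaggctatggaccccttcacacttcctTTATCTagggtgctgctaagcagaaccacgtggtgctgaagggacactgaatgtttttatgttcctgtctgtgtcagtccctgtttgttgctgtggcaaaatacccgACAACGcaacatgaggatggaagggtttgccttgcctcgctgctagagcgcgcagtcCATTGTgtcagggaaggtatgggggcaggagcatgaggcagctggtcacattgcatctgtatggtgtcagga
Dgki: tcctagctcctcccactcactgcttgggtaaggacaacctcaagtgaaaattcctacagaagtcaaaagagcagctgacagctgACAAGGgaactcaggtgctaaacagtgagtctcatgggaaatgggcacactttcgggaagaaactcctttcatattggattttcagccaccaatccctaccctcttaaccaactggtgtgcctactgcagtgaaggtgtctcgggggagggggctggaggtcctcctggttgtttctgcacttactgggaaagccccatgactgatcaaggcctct
Wdpcp: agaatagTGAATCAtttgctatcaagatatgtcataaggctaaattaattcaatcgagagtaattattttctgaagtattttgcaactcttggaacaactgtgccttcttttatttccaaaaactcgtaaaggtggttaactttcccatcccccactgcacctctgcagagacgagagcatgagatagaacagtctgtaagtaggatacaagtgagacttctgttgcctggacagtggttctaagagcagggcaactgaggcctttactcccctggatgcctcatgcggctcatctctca
Gm25292: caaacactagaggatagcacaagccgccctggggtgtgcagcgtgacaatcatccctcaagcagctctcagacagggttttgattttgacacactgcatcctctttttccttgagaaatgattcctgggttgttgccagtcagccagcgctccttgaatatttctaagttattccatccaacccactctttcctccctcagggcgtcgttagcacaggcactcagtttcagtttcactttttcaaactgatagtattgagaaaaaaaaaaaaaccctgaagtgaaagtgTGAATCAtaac
Sdk2: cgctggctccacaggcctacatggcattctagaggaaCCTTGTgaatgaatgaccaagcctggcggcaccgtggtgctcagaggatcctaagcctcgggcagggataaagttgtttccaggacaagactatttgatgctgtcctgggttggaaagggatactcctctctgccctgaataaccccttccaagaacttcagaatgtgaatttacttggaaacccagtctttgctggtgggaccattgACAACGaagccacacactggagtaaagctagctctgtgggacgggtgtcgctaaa

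In the window near *Pla2g2c* there were 1 GATA and 2 SOX matches, in that of *Dgki* 1 SOX match and in that of *Sdk2* 2 SOX matches. The *Wdpcp* and *Gm25292* windows held 1 AP1 match each. These are matches of letters only. Because the windows were chosen for holding a match, they do not show how frequent motifs are at lost peaks.

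All 5 markers of EpdSCs (*Krt5*, *Krt14*, *Itga6*, *Ly6a* and *Trp63*) had an H3K27ac peak within 1000 bp of a start site in all 5 lists, with fold enrichments of 9.33 to 44.6 at D0. Of 11 markers of immune, endothelial, melanocyte and fibroblast cells, 1 had a peak at D0, *Pmel*, and that peak covered the start site of the neighbouring gene *Cdk2*. *Pecam1*, an endothelial marker, had a peak at W6 (4.77) and W12 (14.9), *Dct*, a melanocyte marker, had one at W1 (3.85), and the part of such cells in the results was not tested. Of 4 hair follicle stem cell markers, *Sox9* had a peak before induction (14.7) and *Lhx2* had one at W2 (4.91), while *Cd34* and *Lgr5* had none in any list. None of the marker start sites held a lost peak. The lists had 29081 to 33985 peaks, and the background pileup recovered from them was lowest at W1 (0.299, against 0.501 at D0), so that the W1 list was the shallowest.

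The lost peaks were weak. Their fold enrichment over local background had a median of 4.02 (5th to 95th percentile 3.33 to 6.66), against 7.33 for all other D0 peaks and 12 for the 10367 constant peaks, those called in all 5 lists. Their median width was 378 bp, against 766 bp for the other D0 peaks and 1245 bp for constant peaks. Between these lay the 5266 recalled peaks, which were missing at W1 and called again later (median fold 5.33, width 476 bp), and the 8568 peaks that were called at W1 and missing from at least 1 later list (6.0 and 603.5 bp). The W1 list lacked a peak over 37.4% of D0 peaks, the W2 list over 38.6%, that of W6 over 37.8% and that of W12 over 53.7%. These lists chose the members, so the values are given as a description.

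Taking the fold as pileup plus 1 over background plus 1, as MACS2 defines it, most D0 folds fell on evenly spaced steps. From these the pileup, the number of fragments stacked at the summit, was recovered for 96.0% of D0 peaks and 89.4% of lost peaks. Of peaks with a pileup of 4 (fold 3.33), 53.7% were lost for good. The share was 43.3% at a pileup of 5, 31.8% at 6, 15.8% at 8, 2.48% at 12 and 0.563% at 13 or more, where 49 of 8711 peaks were lost. A D0 pileup of 5.03 corresponds, after scaling by the backgrounds, to the smallest pileup called at W1 (3). Of the lost peaks, 3036 reached it, and 12.6% of all D0 peaks that reached it were lost. For the other lost peaks, an unchanged site and a lost site cannot be told apart at the depth of W1. This limit takes no account of counting noise, also for peaks just above it, and was worked out for W1 alone. The backgrounds of the W2, W6 and W12 lists, from which members also had to be missing, were 0.425, 0.677 and 0.412. Folds of at least 8 were found at 74 lost peaks, of 9845 D0 peaks this strong, and folds of at least 10 at 19.

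**Figure D1:**
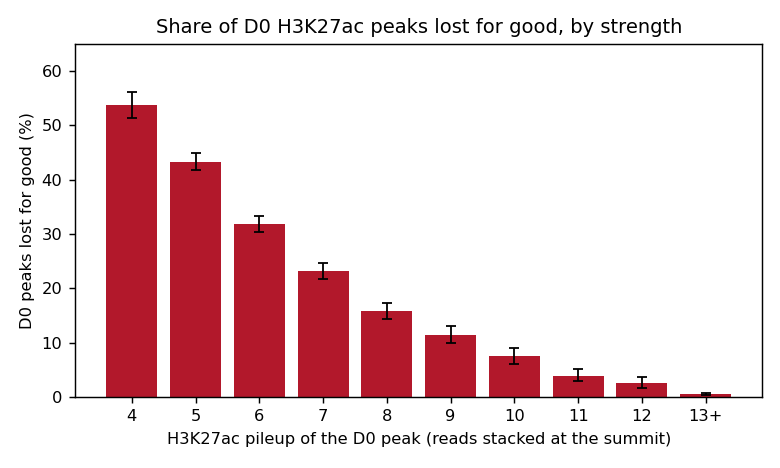
Share of D0 H3K27ac peaks that were lost for good (y axis, percent) by their pileup at D0 (x axis, stacked fragments), with exact 95% intervals. The share fell from 53.7% at a pileup of 4 to 0.563% at 13 or more.

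The rule draws its line at 1 bp. Just inside it, 165 lost peaks had a later peak within 50 bp, with a median fold of 4.0, and 96.4% of them lay in an H3K4me1 domain at W2. Just outside it, 193 D0 peaks were overlapped in a single later list by 50 bp or less, with a median fold of 4.66, and 97.4% lay in such a domain. A later peak lay within 500 bp of 1347 lost peaks (22.2%) and within 10000 bp of 4517 (74.5%). The median gap to the nearest later peak was 2830 bp. By list, the median gap ran from 6684 bp (W1) to 10195 bp (W6). A peak new since D0 lay within 10000 bp of 22.9% of lost peaks at W2 (21.8 to 23.9%), against 31.9% of the other D0 peaks (31.3 to 32.5%). At W6 the shares were 22.7% and 33.2%, at W1 33.1% and 38.8%, and at W12 31.9% and 37.0%. The later lists also chose the members, and these shares were not matched for strength or place.

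The question then was what remained at these sites once acetylation was no longer called, and H3K4me1, which the rule did not use, answers part of it. An H3K4me1 domain overlapped 93.0% of lost peaks at D0 (92.4 to 93.7%), beside 95.9% of all D0 peaks. At W1 it was 88.6% (87.8 to 89.4%) beside 93.8%, and at W2 80.3% (79.3 to 81.3%) beside 92.5%. The share was higher again at W6, at 84.2% (83.3 to 85.1%) beside 94.4%, and at W12, at 84.1% (83.2 to 85.1%) beside 92.4%. Constant peaks stayed between 94.1% and 97.2% in all 5 lists. Recalled peaks, which also lacked H3K27ac at W1, were between 92.6% and 95.03%. Width enters such an overlap, and constant peaks were wider. With the summit itself in a domain, lost peaks were at 92.2, 87.4, 78.6, 82.6 and 82.7% from D0 to W12. Constant peaks were at 77.4, 78.3, 85.6, 82.7 and 72.9%, and all other D0 peaks at 86.2, 86.0, 89.6, 89.1 and 83.2%. By summit, lost peaks thus stood above these classes at D0 and W1 and below them at W2. The lists themselves differed in size: that of W2 held 73415 domains over 294.5 Mb, that of D0 87287 over 309.7 Mb, that of W1 69439 over 263.6 Mb, that of W6 79556 over 272.6 Mb and that of W12 74316 over 269.8 Mb. The part of list size in these shares was not tested. Thus the site was still methylated at most lost peaks at every time point, and the share without a domain was largest at W2.

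**Figure D2:**
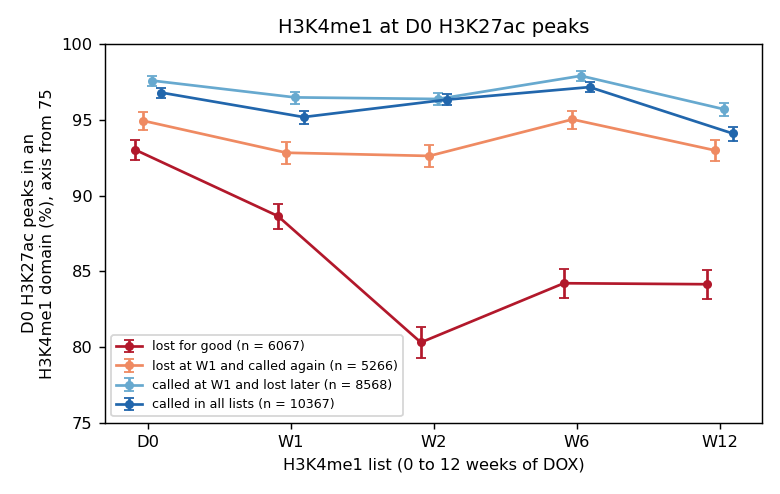
Share of D0 H3K27ac peaks overlapping an H3K4me1 domain (y axis, percent, starting at 75) in the lists of D0 to W12 (x axis), for 4 classes of peaks, with exact 95% intervals. Peaks lost for good fell from 93.0% at D0 to 80.3% at W2 and stood at 84.1% at W12, while constant peaks stayed at or above 94.1%. Overlap depends on peak width, which was greatest for constant peaks.

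Strength moved with this share, so lost peaks were set beside other D0 peaks of the same pileup. At a pileup of 5, 94.9% of 1761 lost peaks and 97.7% of 2302 others were in a domain at D0, and 82.2% and 96.1% at W2. At a pileup of 8 the shares were 97.5% and 97.3% at D0, and 87.6% and 96.0% at W2. Among distal peaks, those over 2500 bp from a start site, with a fold under 5, 77.1% of lost peaks (75.7 to 78.4%, n = 3743) and 96.0% of others (95.4 to 96.5%, n = 4386) were in a domain at W2. With folds of 5 to 7 the shares were 86.9% (84.8 to 88.9%, n = 1126) and 98.1% (97.6 to 98.5%, n = 3757). With folds of 7 to 10 they were 91.2% (85.7 to 95.1%, n = 159) and 97.8% (97.1 to 98.3%, n = 2376). In these 3 bands of distal peaks the lost peaks had the lower share at W2, and the gap was smaller at higher folds. Over all peaks the gap did not go on shrinking among the strongest ones, which were few among the lost peaks. At a pileup of 12 the shares at W2 were 96.0% of 25 lost peaks and 95.8% of others, and at 13 or more 83.7% of 49 lost peaks and 95.5% of others.

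**Figure D3:**
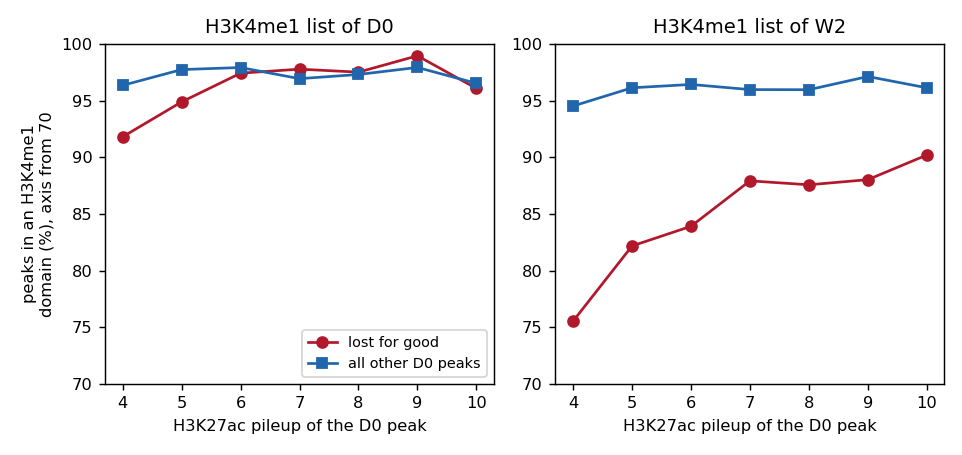
Share of peaks in an H3K4me1 domain (y axis, percent, starting at 70) by D0 pileup (x axis) at D0 (left) and W2 (right), for peaks lost for good and all other D0 peaks. At a pileup of 8 the shares were 97.5% and 97.3% at D0 but 87.6% and 96.0% at W2.

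Histories of the single sites divide the lost peaks. H3K4me1 was called in all 5 lists at 4416 (72.8%, 71.6 to 73.9%), beside 86.5% of all D0 peaks and 89.8% of constant peaks. The next most frequent history, at 338 lost peaks, was a domain in every list but W2, which 1.14% of other D0 peaks had and 5.57% of lost peaks. No domain was called in any list at 315 lost peaks (5.19%), against 1.19% of other D0 peaks. A domain was called at D0 and W1 and never after at 143 (2.36%), against 0.0950% of others, and at D0 alone at 128. Of the lost peaks in a D0 domain, 2.27% (1.90 to 2.69%) had none in any later list, against 0.15% (0.104 to 0.208%) of the other D0 peaks. Loss by W2 was 14.7% (13.8 to 15.7%) beside 4.95% of all D0 peaks. In the W1 list the loss was 5.37% beside 3.18%, in that of W6 10.4% beside 2.98%, and in that of W12 10.5% beside 4.91%. Of 611 lost peaks methylated at D0 and W1 and not at W2, 468 were in a domain again at W6 or W12 (76.6%, 73.0 to 79.9%). For the other D0 peaks this was 382 of 405 (94.3%, 91.6 to 96.4%).

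Domains that persisted were narrower later. Under the 4416 lost peaks with a domain in all 5 lists, domains had a median of 8600 bp at D0. It had come down to 6000 bp by W1, to 5600 bp by W2 and to 5400 bp by W6, where it stood at W12 too. For the 21780 other D0 peaks with a domain throughout, the median was 8000 bp at the start, 6800 bp from W1 to W6 and 6400 bp at the end. Domains under lost peaks thus started wider and ended narrower, while the median over all domains of a list was 2400 to 2800 bp. Where a lost peak in a D0 domain had no domain at W2 (832 peaks), another stretch of the same D0 domain was still called in 342 cases (41.1%, 37.7 to 44.5%), with a median D0 width of 9400 bp. For the other D0 peaks the share was 38.7% (34.8 to 42.8%). In the other 490 the whole domain was gone, with a median D0 width of 2800 bp. In D0 domains of 2000 bp or less, 56.6% of 369 lost peaks were still in a domain at W2, against 86.1% of 1508 others. In domains over 8000 bp it was 91.4% of 2683, against 99.1% of 11106.

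**Figure D4:**
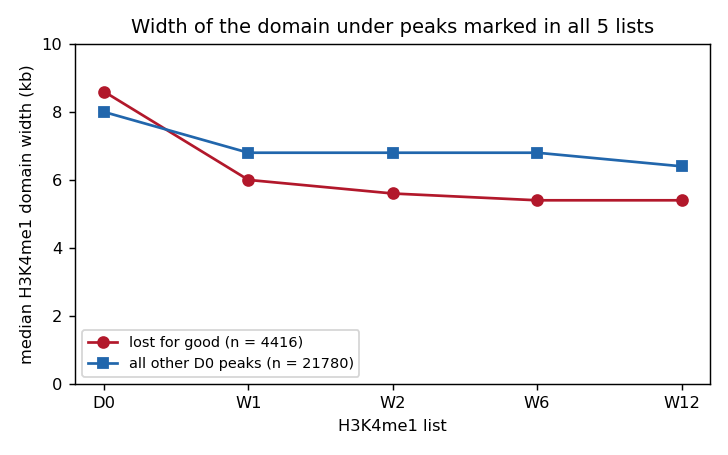
Median width of the H3K4me1 domain (y axis, kb) in each list (x axis) under peaks that lay in a domain in all 5 lists, for 4416 peaks lost for good and 21780 other D0 peaks. The medians went from 8600 to 5400 bp and from 8000 to 6400 bp. They have no error bars because each time point has 1 pooled list.

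Among lost peaks, company within the domain went with persistence. Of 5644 lost peaks in a D0 domain, 2634 (46.7%) were its only H3K27ac peak, beside 47.9% of all D0 peaks, and 70.2% of these (68.4 to 72.0%) kept H3K4me1 in all 5 lists. Where the domain held other H3K27ac peaks and all of these were lost for good too (555 peaks), 74.96% (71.1 to 78.5%) kept it. Where it held a peak called in some but not all later lists (1179 peaks), 86.3% (84.3 to 88.3%) did. Where the domain also held a constant peak (1276 peaks), 88.7% (86.8 to 90.4%) did. Domain width went with this order, from a median of 4200 bp for the single peaks to 18200 bp for those with a constant neighbour, and its part was not tested. The shares by company were not worked out for the other D0 peaks, so this order cannot be called particular to lost peaks. The nearest D0 peak of a lost peak was itself lost for good in 30.2% of cases (29.0 to 31.4%), against 16.5% (16.0 to 16.9%) for the other D0 peaks. Peak and neighbour were both classed from the lists that chose the members, so these shares are a description. They were not matched for strength or place.

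Lost peaks were distal. Of the 6067, 83.0% (82.1 to 84.0%) lay over 2500 bp from a start site, beside 57.0% of all D0 peaks, 64.3% of recalled peaks and 34.0% of constant peaks. Over 10000 bp away were 55.1%, against 31.8% of the other D0 peaks. Summits of 3438 (56.7%) lay in introns more than 1000 bp from a start site, 1825 (30.1%) were intergenic, 248 (4.09%) were exonic and 556 (9.16%) were promoter peaks, within 1000 bp of a start site. Constant peaks were promoter peaks in 62.2% of cases. At equal pileup, lost and other D0 peaks were distal in 83.5% and 72.4% of cases at a pileup of 5, 83.4% and 61.8% at 8, 81.4% and 53.4% at 10, and 65.3% and 26.4% at 13 or more, a gap that was wider at the higher of these 4 pileups. By chromosome the share of D0 peaks lost for good ran from 18.3% on chromosome 3 to 22.4% on chromosome 18 among autosomes. It was 16.4% on chromosome X, of 420 peaks.

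Base composition differed as place did. The 300 bp windows at lost summits had a median GC content of 48.0%, against 52.0% for the other D0 peaks and 56.0% for constant peaks. A GATA motif was found in 14.7% of lost windows beside 11.1% of all D0 windows, an AP1 motif in 10.7% beside 8.92%, and a SOX motif in 47.1% beside 43.1%. Among distal windows these differences shrank. GATA was found in 15.5% of lost windows (14.5 to 16.6%) and 13.96% of others (13.3 to 14.6%), AP1 in 11.1% and 11.3%, and SOX in 47.4% (46.0 to 48.8%) and 49.3% (48.4 to 50.2%). Matches of 2 kinds shared bases in 0.297% of lost windows.

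Keratinocytes in culture carried fewer of these sites. Without DOX, a culture H3K4me1 domain overlapped 2964 lost peaks (48.9%, 47.6 to 50.1%), beside 62.1% of all D0 peaks and 65.2% of constant peaks. Peak width enters such an overlap: when the summit itself had to lie in the domain, the shares were 41.5% for lost peaks and 46.8% for the other D0 peaks. Among distal peaks with a fold under 5, whose median widths were 355 bp and 419 bp, summits lay in a domain at 38.0% of lost peaks (36.5 to 39.6%) and 57.0% of others (55.5 to 58.5%). Culture and skin histories went together, among lost peaks as among all D0 peaks. A culture domain was found at 57.3% of lost peaks with H3K4me1 in all 5 skin lists, at 31.7% of those that had it at D0 and not at W2, and at 7.94% of those without it in any list. Over all D0 peaks the first 2 of these shares were 67.6% and 35.2%. In no culture list were 2289 lost peaks (37.7%), and in all 4 were 1991 (32.8%), against 22.7% and 49.1% of the other D0 peaks.

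Lost peaks differed from the rest in how WT SOX9 changed the culture list. With WT, 44.4% of lost peaks lay in a domain beside 62.7% of all D0 peaks, with ΔHMG 47.9% beside 57.5%, and with ΔTA 47.9% beside 58.2%. Of the 2964 lost peaks with a domain without DOX, 648 had none with WT (21.9%, 20.4 to 23.4%), beside 12.5% of all D0 peaks, 13.97% of recalled peaks and 7.58% of constant peaks (6.96 to 8.24%). With ΔHMG, 14.5% (13.2 to 15.8%) had none, beside 14.4%, and constant peaks were at 15.5%. With ΔTA, 16.9% (15.5 to 18.3%) had none, beside 15.0%, and constant peaks were at 14.6%. The classes were thus far apart with WT. They were not matched for strength, width or place here. The culture lists covered 119.7 Mb without DOX, 133.1 Mb with WT, 120.1 Mb with ΔHMG and 133.2 Mb with ΔTA. The part of these differences in the shares was not tested. With ΔHMG the interval of the lost peaks included the value of all D0 peaks, and with ΔTA it lay just above it. The difference between the forms of SOX9 was not tested, there being 1 list for each. The list without DOX was of the WT culture alone. For ΔHMG and ΔTA, DOX and the separately transduced culture therefore cannot be told apart. Absence with WT and presence with both ΔHMG and ΔTA was found at 297 lost peaks (10.02%, 8.96 to 11.2%) and at 4.15% of the other D0 peaks (3.85 to 4.47%). New domains went the other way: of lost peaks without a domain before DOX, 12.2% (11.1 to 13.5%) gained one with WT beside 21.9% of all D0 peaks, 11.9% with ΔHMG beside 11.3%, and 14.3% with ΔTA beside 14.3%.

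**Figure D5:**
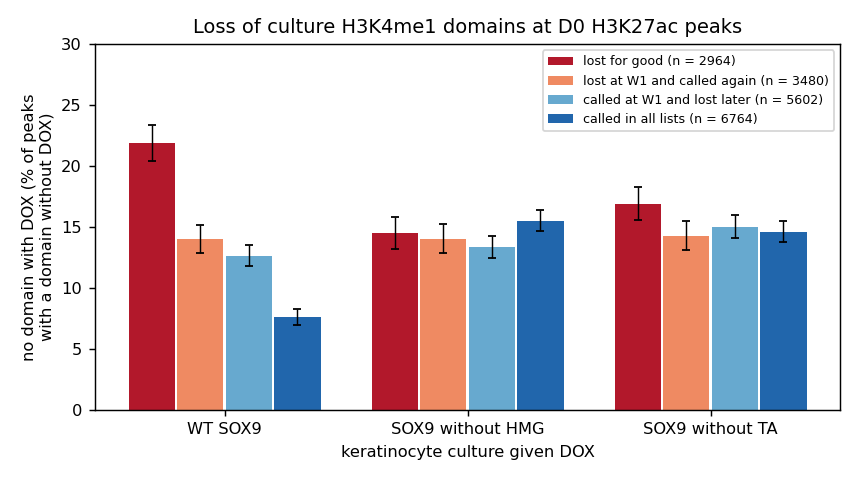
Share of D0 H3K27ac peaks without a culture H3K4me1 domain after DOX (y axis, percent of peaks with a domain without DOX) for each form of SOX9 (x axis), in 4 classes of peaks, with exact 95% intervals. With WT the share was 21.9% for peaks lost for good and 7.58% for constant peaks, and with ΔHMG it was 14.5% and 15.5%. The list without DOX was of the WT culture for every form.

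The strongest lost peak covered the start site of *Bmp3*, a BMP family member known to antagonise BMP signalling (chr5:98854127-98856713, 2587 bp). It had a fold of 18, a pileup of 26 and a −log10 q of 32.9 at D0. The nearest H3K27ac peaks stood 898 bp away at W1 and 8860, 8085 and 7829 bp away at W2, W6 and W12. Its H3K4me1 domain, 13000 bp wide at D0, was called in all 5 lists, and so were domains in all 4 culture lists. This promoter lost its acetylation peak within a domain that stayed methylated. The second, 48409 bp from *Pla2g2c*, a secreted phospholipase A2 gene, had a fold of 15.3 (chr4:138675331-138676383). It lay in an H3K4me1 domain in every list but W2 and in none of culture, and no later H3K27ac peak was nearer than 78235 bp.

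Of the 10 strongest, 7 had an H3K4me1 domain in all 5 lists, and 6 of those were also in all 4 culture lists. They include the intronic peaks of *Dgki* (fold 12.7), *Wdpcp* (12.7) and *St3gal6* (12), the last a sialyltransferase gene. At *Galnt1*, whose enzyme starts mucin-type glycosylation, a peak 484 bp from a start site had a fold of 14.7, with H3K4me1 in every skin list and in no culture list. Later peaks lay 679, 767 and 625 bp away at W2, W6 and W12. An intronic peak of *Tex2* (13.3) lay in a 14200 bp domain at D0 that was called over it again only at W6. At *CT030661.1* a peak of fold 12 lay over the start site with no H3K4me1 in any list. At the promoter of *Mcf2l*, a guanine nucleotide exchange factor gene, the fold was 12 and H3K4me1 was called throughout. Among promoter peaks the next was *Gdpd2* (chrX:100730122-100731577, fold 10.7), also methylated throughout and with no later H3K27ac peak nearer than 42027 bp.

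The 128 lost peaks whose H3K4me1 was called at D0 alone were weaker. The strongest, near *Gm25292*, had a fold of 7.33 and a domain of 2400 bp, and its later H3K27ac peaks lay 47751 to 113440 bp away. The next was in an intron of *Ccl28*, a chemokine gene of epithelia (6.66, domain 1600 bp). Peaks of fold 6.0 followed in an exon of *Jup*, which encodes the junction protein plakoglobin (domain 3000 bp), in an intron of the scramblase gene *Ano6* (1400 bp) and in *9830132P13Rik* (2600 bp). All 5 were in none of the culture lists.

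A culture domain that was present without DOX and absent with both WT and ΔHMG was found at 253 lost peaks (8.54%, 7.55 to 9.6%), beside 5.64% of all D0 peaks with a domain without DOX. The strongest lay in an intron of *Sdk2* (chr11:113951876-113952252, fold 9.33). It was followed by the start site of *Pdpr*, a regulatory subunit gene of the pyruvate dehydrogenase phosphatase (8.66). Then came an intron of *Ldlrad4*, a negative regulator of TGF-β signalling (8.0). The next peak lay in an intron of *Fgfr2*, but its nearest start site was that of *Cpxm2*, 8630 bp away (8.0). After it came an intergenic site whose nearest coding gene was the death receptor *Fas* (7.33). Of these 5 peaks, 4 were methylated in all 5 skin lists. At *Pdpr* a domain of 600 bp was missing at W1 alone.

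Lost peaks were nearest to 4341 genes, of which 3264 had 1 such peak and 65 had 5 or more. *Tiam1*, an exchange factor gene for RAC, had most: 16 of the 38 D0 peaks nearest to it were lost, with folds of 3.33 to 9.33, and 5 of the 38 were constant. Of these 16, 14 lay in an H3K4me1 domain before induction, 15 at W2 and 10 in grafted skin of W12. At *Rxra*, which encodes the retinoid X receptor alpha, 12 of 38 were lost, with folds of 3.33 to 5.33, and all 12 were methylated in every list. The Arf GTPase-activating gene *Asap1* had 10 of 19, among them a peak over its start site (8.0). Around *Ifnk*, which encodes the interferon of keratinocytes, 9 of 13 were lost and none was constant.

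Further such genes were *Tnfrsf19*, a TNF receptor family member (9 of 21), the pseudogene *Gm5338* (8 of 9), the actin nucleator gene *Cobl* (8 of 13), *Sipa1l3* (8 of 31), the non-coding *Gm11986* (7 of 13) and *Adamts14*, a procollagen processing enzyme (7 of 8). At *Adamts14* a peak 42 bp from a start site had the highest fold of its 7 (8.66), and all 7 were methylated in every list. At *Cobl*, 5 of 8 were in a culture domain without DOX, and at *Tnfrsf19* 1 of 9. Genes with many D0 peaks can hold many lost ones, so each count is given beside the number of D0 peaks there.

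Peaks in or within 10000 bp of genes in 10 lists of epidermal and signalling biology were lost at shares on either side of the value over all D0 peaks, and the interval of each list but 1 (hair follicle stem cell genes) included that value. That list shares *Vdr* (15 D0 peaks) and *Barx2* (9), neither with a lost peak, with the list of epidermal transcription factors. Without these 2 genes, an alternative added after their values were seen, its share was 14.5% (7.7 to 23.9%), whose interval includes the value over all D0 peaks. For the suprabasal and cornified layer it was 19 of 73 peaks (26.0%, 16.5 to 37.6%). They include a peak 31 bp from the start site of *Tgm3*, an epidermal transglutaminase (7.33), 2 peaks upstream of *Cnfn*, a gene of the cornified envelope, that lay 292 and 9 bp from the start site of *4732471J01Rik* (4.0 and 6.0), 2 at *Evpl*, envoplakin (5.33 and 6.0), and 4 of 13 at *Dsp*, desmoplakin. A peak at *Dsg1a*, a desmosomal cadherin of the upper layers, had the highest fold of the list (11.3) and was picked out after its value was seen. No other D0 peak lay within 10000 bp of *Cnfn*. For basal keratins and adhesion it was 30 of 156 (19.2%, 13.4 to 26.3%). The hemidesmosomal collagen gene *Col17a1* held 9 of these, of 19 D0 peaks, with folds of 3.33 to 5.98, of which 6 were methylated throughout. *Dst* held 4 of 17, *Lama5* 3 of 6 and *Lama3* 3 of 12.

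For epidermal transcription factors 37 of 211 peaks were lost (17.5%, 12.7 to 23.4%), of which 10 were in a culture domain without DOX. *Rxra* held 11 of them and the nuclear receptor gene *Rora* 9 of 21, with folds of 3.33 to 7.33. At *Rora*, 6 of the 9 were methylated throughout and none had a culture domain without DOX. *Tfap2c*, encoding AP-2γ, held 3 of 7 and *Pou2f3* 2 of 18. *Trp63*, the master regulator of the epidermal lineage, held 1 of 17 (fold 3.54), while 9 were constant. It too was picked out after its values were seen. For AP1 factors it was 8 of 43 (18.6%, 8.39 to 33.4%). The 3 at *Atf3*, with folds of 3.27, 5.05 and 6.42, had no H3K4me1 in any list, 2 at *Fosl1* had folds of 5.29 and 6.78, and *Fosl2* held 2 and *Fosb* 1.

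Among signalling genes, the TGF-β and BMP pathway had 29 of 110 (26.4%, 18.4 to 35.6%), of which 18 were in a culture domain without DOX (62.1%). The co-receptor gene *Tgfbr3* held 9 of 22, all 9 methylated in every list, with folds of 3.33 to 5.33. The receptor gene *Tgfbr2* held 6 of 9, of which 3 were methylated throughout, *Smad3* 4 of 10 and *Bmpr1a* 3 of 5. EGF receptors and ligands had 15 of 92 (16.3%, 9.42 to 25.5%). *Egfr* itself held 7 of 27, the strongest with a fold of 8.0, and 6 were methylated throughout. The ligand gene *Epgn* lost a promoter peak of fold 9.996, 492 bp from a start site, that stayed methylated in skin and in all 4 culture lists. *Lrig3* and *Lrig1*, a restrainer of EGF receptor signalling, held 2 each.

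The Notch pathway had 11 of 69 (15.9%, 8.24 to 26.7%), with 4 of 8 D0 peaks at the ligand gene *Jag1*, 2 of 4 at the ligand gene *Dll1*, 1 of 2 at *Jag2* and 2 of 14 at the coactivator gene *Maml3*. Chromatin cofactors had 15 of 60 (25%, 14.7 to 37.9%), of which *Arid1b*, a subunit gene of SWI/SNF, held 10 of 26, with folds of 3.17 to 5.33, and 9 of these were methylated throughout. *Arid1a* held 3 of 8, and *Smarca4* and the H3K4 methyltransferase gene *Kmt2c* 1 each. Shares were lowest for hair follicle stem cell genes, at 12 of 107 (11.2%, 5.93 to 18.8%), and for the Hedgehog pathway, at 4 of 40 (2.79 to 23.7%). In the former, *Nfib* held 4 of 36, *Nfatc1* 2 of 8, and *Cxcl14* and *Runx1* 1 each. In the latter, *Ptch1* held 2 and *Cdon* and *Gli2* 1 each.

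Strength enters these shares as well. Of all D0 peaks with a fold under 7, 32.7% were lost for good. Among peaks this weak the share was 15.8% (8.43 to 26.0%, n = 76) at hair follicle stem cell genes, 43.6% (27.8 to 60.4%, n = 39) at genes of the suprabasal and cornified layer and 27.3% (19.9 to 35.7%, n = 132) at epidermal transcription factors. The interval for hair follicle stem cell genes lay below 32.7%, also without *Vdr* and *Barx2* (12 of 63 peaks, 10.2 to 30.9%), and those for the other 2 lists included it.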

How the data were processed

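H3K27ac and H3K4me1 were profiled by MINT-ChIP, in which barcoded chromatin is pooled before immunoprecipitation. Per the labels and the study's methods, the authors split reads by barcode, trimmed them, aligned them to GRCm38 with Bowtie2 (2.2.9), removed duplicates with Picard, merged replicates and the high and low MNase digests with SAMtools (1.9) and called peaks. Caller settings and controls are not given in the sources used here. The deposited H3K27ac lists hold, from MACS2 (2.1.1), a score, a fold enrichment and −log10 q-values per peak. The deposited H3K4me1 domain lists of skin, which the authors made with epic2 in 200 bp bins, hold a p-value per domain. The deposited culture lists hold intervals with a score, fold and −log10 values, and their caller is not given in the sources used here. Columns were assigned to groups by the time, mark and SOX9 form in the list names. Total H3 was not used here.

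Lists were intersected in Python 3.11.15 (numpy 2.4.6, pandas 2.3.3, pysam 0.24.0) at 1 bp or more, with chrM set aside (2 to 5 peaks per H3K27ac list). Places and start sites are from GENCODE M21 basic. Motifs were searched in 300 bp around each summit. Shares carry exact Clopper-Pearson intervals from scipy 1.17.1, which treat peaks as independent and cover counting error only. Peak lists give no read totals, so depth was gauged from the background pileup. The interval scripts were tested on simulated intervals. Members and gene lists were chosen with earlier results of these data known. Named peaks are, by D0 score, the 10 strongest and the 5 strongest each at coding promoters, with H3K4me1 at D0 alone, with H3K4me1 in all 5 lists and in a culture domain lost with WT and ΔHMG. Named genes are the 10 genes nearest to most members, and up to 4 genes per list by number of members. Of the named peaks, 1 is not reported here.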

Additional observations from a re-analysis of the deposited data

How the results depend on the processing

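The set was weak at D0, in a list that the rule itself used, and depth, above all at W1, limits what a missing peak can show. Lists are pooled, so no replicate could be left out. No paired analysis was possible because the lists pool replicates and no test was made. Over 15 results and 96 alternatives, lost peaks kept their order against the other D0 peaks in 91. The 5 exceptions all concern culture domains absent with ΔHMG (13.7 to 14.1% of lost peaks in these 5). The value itself stayed within the main interval in 41 of the 96. The summit setting was not among the alternatives for D0 and W1, where it reverses the order. There 92.2% and 87.4% of lost summits lay in an H3K4me1 domain, against 86.2% and 86.0% of the others. Restricting D0 peaks to those deep enough for W1 left 3036 lost peaks. The median fold was 4.58 with an overlap of 50% required, 4.66 without the W1 list and 4.60 without the W12 list. The share in an H3K4me1 domain at W2, in the order 50% overlap, no later peak within 500 bp, q under 0.01, deep enough for W1 and no W1 list, was 82.8, 76.3, 82.2, 83.9 and 83.6%. In the same order the share in all 5 lists was 76.0, 67.7, 75.6, 78.5 and 77.0%, and the share in culture without DOX was 51.0, 46.9, 50.7, 53.1 and 51.1%, with 50.9% without the W12 list. Asking that the summit lie in the domain gave 78.6, 69.9 and 41.5%, against 89.6, 75.2 and 46.8% of the other D0 peaks. Leaving out windows soft-masked over 50% or more, which was added once the data had been seen, gave 82.5% (W2) and 74.9% (all 5 lists). The distal share was 84.9% with no later peak within 500 bp, 90.8% at a limit of 1000 bp and 55.1% at 10000 bp. The cause was not tested.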

Other observations

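The 315 lost peaks without an H3K4me1 domain in any skin list differed from the other lost peaks in their sequence. Their windows were soft-masked as repeats over more than 50% of their length in 32.4% of cases, against 7.63% of the 4416 with a domain in all 5 lists and 13.8% of the 1336 with another history. An AP1 motif was found in 5.08%, 11.1% and 10.6% of these sets, and a GATA motif in 13.3%, 14.4% and 16.0%. Their median width was 321 bp, against 393 bp for those with a domain throughout. The part of read mapping in repeats was not tested.

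Where no H3K4me1 domain was called at D0 (423 lost peaks), 108 lay in one in some later list (25.5%, 21.4 to 29.97%), against 64.1% of the 806 other such D0 peaks (60.7 to 67.5%).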
